A study of Homo sapiens with 8 samples.

Results

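The set consisted of 10 genes of transforming growth factor beta (TGF-beta) and bone morphogenetic protein (BMP) signalling: the coreceptor TGFBR3, the type I receptor ACVR1, the type II receptors TGFBR2, ACVR2A and BMPR2, the signal transducers SMAD1 and SMAD5, the inhibitor SKIL, and the target genes ID2 and ID3. They were chosen by name from 28043 genes listed for HCT116 cells and 63241 genes listed for NCI-H716 cells. The choice was made with earlier results of these data known, and all 10 genes were found in both lines. RNA-seq had been carried out on both colorectal cancer lines, as controls or exposed to Z325 (ZINC000101867325). Z325 is a small molecule selected by docking to fibroblast growth factor receptors. Each of the 4 groups (control HCT116, Z325-treated HCT116, control NCI-H716 and Z325-treated NCI-H716) had 2 libraries, each made from about 100 cells. HCT116 is an adherent colorectal carcinoma line, and NCI-H716 is a colorectal line with enteroendocrine features. The treated libraries carry the title Test, the labels name no dose, exposure time or vehicle for them, and each line stands for 1 genetic background. The study calls the libraries of a group biological duplicates, but the labels do not say whether they came from separate cultures, so that the p-values measure only the spread between these libraries, which may be technical.

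In this pathway a ligand joins type I and type II serine/threonine kinase receptors on the cell surface, and the type II receptor then activates the type I receptor. BMP receptors phosphorylate SMAD1, SMAD5 and SMAD9, TGF-beta and activin receptors phosphorylate SMAD2 and SMAD3, and both kinds of SMAD enter the nucleus with SMAD4. In the colon, TGF-beta restrains growth of the epithelium and BMP accompanies its differentiation, and the pathway is often broken in colorectal cancer. HCT116 is known as a mismatch-repair-deficient line whose TGFBR2 reading frame is disrupted, so that little working receptor is made, and read counts per gene do not show the reading frame.

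The promoters of 4 members are shown because ID2 and TGFBR2 were the members called in HCT116, ID3 was the most abundant member in NCI-H716, and BMPR2, which was called in neither line, held the most SMAD elements in 1 window. Each sequence is the 250 bases before a RefSeq transcription start (GRCh38.p14), written 5′ to 3′ on the strand of the gene, and capitals mark a match to a SMAD element (CAGAC, on either strand) or a BMP element (GGCGCC). The windows are chr2:8681806-8682055 on the plus strand for ID2, chr3:30606351-30606600 on the plus strand for TGFBR2, chr1:23559502-23559751 on the minus strand for ID3 and chr2:202376077-202376326 on the plus strand for BMPR2.
ID2: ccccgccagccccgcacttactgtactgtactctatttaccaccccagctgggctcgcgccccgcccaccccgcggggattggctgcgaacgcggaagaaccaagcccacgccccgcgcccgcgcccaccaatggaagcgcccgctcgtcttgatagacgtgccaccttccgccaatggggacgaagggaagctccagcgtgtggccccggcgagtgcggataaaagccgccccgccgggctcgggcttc
TGFBR2: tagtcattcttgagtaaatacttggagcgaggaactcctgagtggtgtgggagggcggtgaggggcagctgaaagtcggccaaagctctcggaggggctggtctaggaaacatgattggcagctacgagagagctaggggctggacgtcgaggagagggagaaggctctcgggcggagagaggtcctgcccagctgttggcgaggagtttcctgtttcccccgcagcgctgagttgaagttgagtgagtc
ID3: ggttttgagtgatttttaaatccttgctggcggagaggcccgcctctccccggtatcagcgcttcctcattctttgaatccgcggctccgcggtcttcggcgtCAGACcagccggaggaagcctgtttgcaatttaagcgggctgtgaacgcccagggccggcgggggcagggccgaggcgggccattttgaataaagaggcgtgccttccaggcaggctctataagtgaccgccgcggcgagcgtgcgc
BMPR2: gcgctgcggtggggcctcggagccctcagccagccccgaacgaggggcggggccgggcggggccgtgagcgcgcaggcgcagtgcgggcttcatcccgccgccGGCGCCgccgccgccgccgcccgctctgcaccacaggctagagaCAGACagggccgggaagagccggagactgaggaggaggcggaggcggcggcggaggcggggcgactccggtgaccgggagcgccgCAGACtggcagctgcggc

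All 10 members had a promoter in the table, with 17 windows between them. The window of ID3 held 1 SMAD element and that of BMPR2 held 2 SMAD elements and 1 BMP element, while neither motif was found in the windows of ID2 and TGFBR2. Of the 17 windows, 5 held a SMAD element and 5 a BMP element. These windows belonged to 5 and 4 of the 10 members, some of which had several windows. Among 35116 promoter windows of this length, 38.0% held a SMAD element and 16.4% a BMP element, so that matches were common. The longer SMAD palindrome GTCTAGAC, which was found in 0.182% of all windows, was in no window of a member. These motifs were searched on both strands and share no letters in any window printed here. A match is only a run of letters, and a window without one shows nothing about binding elsewhere.

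The HCT116 libraries held 13183792 to 13396225 counts, apart from the second Z325 library, which held 3434620, and the NCI-H716 libraries held 10210239 to 19738840. The HCT116 table ran only to base 4587469 of chromosome 9, which covers every member, and its values are shares of the listed genes. Counts from 1 to 20 were even numbers in 68.1% to 86.8% of cases in the HCT116 libraries, against 40.8% to 41.6% in NCI-H716, and how read pairs were counted is not given in the sources used here. Halving the HCT116 counts left the same 2 members called. Of the intestinal epithelium list, 3 genes were listed for HCT116, and of these EPCAM, an epithelial adhesion gene, had at least 5665 counts in every library, while VIL1 and CDX1 had at most 6 and 2 counts. In NCI-H716, 7 of the 10 genes of that list had 10 or more counts in some library, among them KRT8 with at least 3462 and EPCAM with at least 506 in every library, and their sum was 651 to 772 counts scaled to a common library total (CPM). The epithelial genes CDH1 and CDX1 had at most 7 and 0 counts there. The enteroendocrine hormone gene GCG had at least 20775 counts in every NCI-H716 library. The fibroblast list, led by COL3A1, LUM and FAP, summed to 533 to 588 CPM over all 4 NCI-H716 libraries, with 6 of its 8 genes at 10 or more counts in some library. It summed to at most 2.04 CPM in HCT116. Its other genes were low in NCI-H716, where PDGFRA, COL1A2, COL6A3, DCN and PDGFRB had at most 64, 26, 13, 9 and 1 counts in any library. The leukocyte and endothelium lists summed to at most 1.27 and 0.392 CPM in either line, and the part of any such cells in the results below was not tested. Since RNA was measured in bulk, fewer cells of a type and less RNA per cell cannot be told apart.

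In HCT116 cells, Z325-treated libraries had less mRNA of 2 members, TGFBR2 and ID2, both to about 40% of control. Both calls came from edgeR's quasi-likelihood test at a Benjamini-Hochberg adjusted p under 0.05. Of the 9 members that passed the filter on low counts, 2 were called, both lower, where 5.78% of all 6491 genes tested were called and 2.94% were called lower and 2.83% higher. The same 2 members were those with an unadjusted p under 0.05, which 12.7% of genes had in the lower direction and 23.9% in either. The other 7 tested members did not pass the test.

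TGFBR3 (betaglycan) presents TGF-beta to the signalling receptors and lies at chr1:91680343-91906335 on the minus strand. It was at 10.3 and 9.82 CPM in the control and 6.10 and 7.74 CPM in the Z325-treated HCT116 libraries. Both treated libraries were below both controls, but the log2 fold change of -0.56 (SE 0.36, 95% confidence interval -1.38 to 0.25) did not pass the test (edgeR adjusted p = 0.383).

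ACVR1 (ALK2, chr2:157736251-157876330, minus strand) is a type I receptor for BMPs. Its control libraries were at 14.0 and 14.6 CPM and its treated libraries at 15.95 and 19.5 CPM. It was the only tested member with both treated libraries above both controls, with a log2 fold change of 0.30 (SE 0.29, edgeR adjusted p = 0.594).

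TGFBR2 is the receptor that binds TGF-beta and starts its signal, and lies at chr3:30606601-30694142 on the plus strand. It had 402 and 390 counts in the control and 153 and 39 counts in the Z325-treated HCT116 libraries. After scaling with TMM factors, these were 29.1 and 29.9 CPM against 11.97 and 11.2 CPM, so that the groups were well apart and the libraries within each were close. TGFBR2 fell by 1.34 on the log2 scale (SE 0.27, 95% confidence interval -1.96 to -0.73), to 39.4% of control (edgeR adjusted p = 0.0285). TGFBR2 was also among the genes that the study displayed in a heat map of these HCT116 samples, so that its call is not independent evidence. Without control replicate 1 or 2 the log2 fold change was -1.37 or -1.33, close to that with all libraries. With 1 control library left, neither edgeR fit called TGFBR2, and calls over all genes fell too. In limma on log2(FPKM + 1), with FPKM the fragments per kilobase of exon scaled to library depth, the log2 fold change was -1.01 and the adjusted p was 0.0959.

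ACVR2A and BMPR2 are type II receptors, ACVR2A mainly for activins and BMPR2 for BMPs. ACVR2A (chr2:147844517-147930826, plus strand) was at 20.5 and 19.9 CPM in the controls and 19.0 and 17.8 CPM after Z325, a log2 fold change of -0.13 (SE 0.27, edgeR adjusted p = 0.821). BMPR2 (chr2:202376327-202567751, plus strand) was at 27.0 and 23.9 CPM against 21.0 and 19.2 CPM, a log2 fold change of -0.33 (SE 0.26, edgeR adjusted p = 0.489). For both genes the 2 treated libraries were lower than the 2 controls without passing the test. When every library was thinned to the depth of the shallowest, the log2 fold change of ACVR2A turned to 0.18. Of the exon bases of ACVR2A, 6.68% lie opposite exons of ORC4, which had 1698 to 7224 counts in HCT116. The transposase-based libraries do not mark the strand, so that reads of the shared stretch cannot be told apart.

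SMAD1 and SMAD5 carry the BMP signal to the nucleus. SMAD1 (chr4:145481194-145559176, plus strand) was at 19.96 and 19.94 CPM in the control and 14.9 and 13.8 CPM in the treated HCT116 libraries, a log2 fold change of -0.47 (SE 0.28, edgeR adjusted p = 0.345). SMAD5 (chr5:136132845-136188747, plus strand) was at 174 and 135 CPM against 126 and 134 CPM, a log2 fold change of -0.26 (SE 0.17, edgeR adjusted p = 0.406). Neither change passed the test, and the highest treated value of SMAD5 was almost at its lowest control value. An antisense gene shares 5.3% of the exon bases of SMAD1 and another shares 6.75% of those of SMAD5, and in HCT116 they had 0 and at most 4 counts in any library.

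SKIL (SnoN, chr3:170357342-170396835, plus strand) encodes a repressor that binds SMAD2, SMAD3 and SMAD4, and is itself induced by TGF-beta. It was at 40.5 and 26.8 CPM in the controls and 34.9 and 32.4 CPM after Z325. The groups overlapped and the log2 fold change was 0.00 (SE 0.27, 95% confidence interval -0.61 to 0.61, edgeR adjusted p = 0.999).

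ID2 encodes a helix-loop-helix protein that binds and blocks transcription factors of differentiation, and is a direct target of BMP signalling. It lies at chr2:8678845-8684461 on the plus strand. ID2 had 3924 and 3769 counts in the control and 1644 and 374 counts in the Z325-treated HCT116 libraries, which were 284 and 289 CPM against 129 and 107 CPM. The groups were well apart, and the deepest member of the line in reads was also the most precise. ID2 fell by 1.27 on the log2 scale (SE 0.15, 95% confidence interval -1.61 to -0.94), to 41.3% of control (edgeR adjusted p = 0.00438). Without control replicate 2 the log2 fold change was again -1.27 and the edgeR adjusted p was 0.0718. ID2-AS1, an antisense gene sharing 6.55% of the exon bases of ID2, had 1 to 10 counts.

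ID3 (chr1:23557926-23559501, minus strand), a close relative of ID2 and also a BMP target, was near absence in HCT116. It had 0 and 2 counts in the control and 0 and 0 counts in the treated libraries, and was not tested. A count of 0 allows a level of up to 0.224 to 0.873 CPM in these libraries (3 counts, counting error only). These limits would be higher if both reads of a pair were counted. A change of ID3 was therefore not detectable at this depth.

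Over the 9 tested members in HCT116, 7 had both treated libraries below both controls and 1 had both above, where 29% of all genes tested were below and 24.8% above. A log2 fold change below 0 was found in 7 of the 9, against 51.8% of all genes. The members' median was -0.33, against -0.03 over all genes tested.

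**Figure D1:**
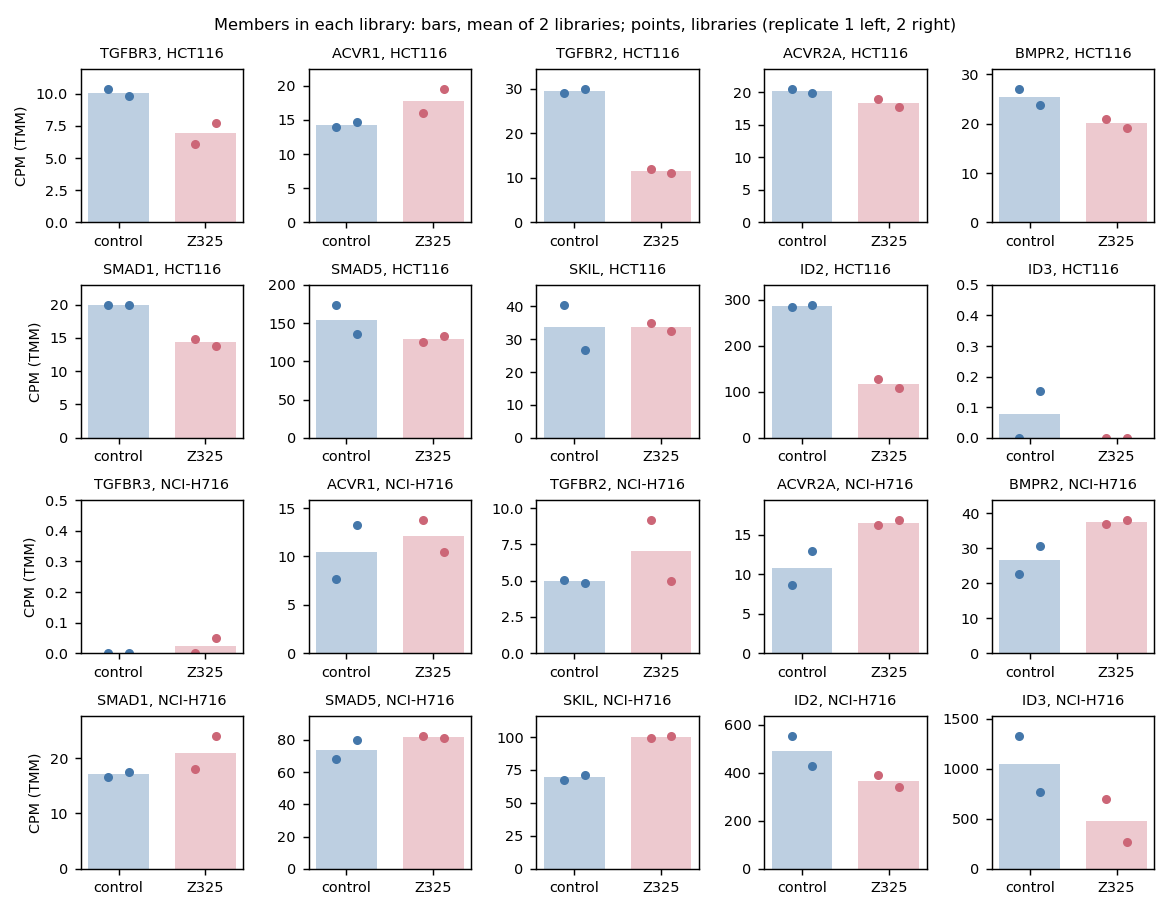
Level of each member in each library in CPM after TMM scaling (y axis, from 0), with a panel for each gene and line; bars are means of 2 libraries and points are libraries. TGFBR2 and ID2 show well separated groups in HCT116, and ID3 in HCT116 and TGFBR3 in NCI-H716 stayed at or next to 0.

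In NCI-H716 no member was called in edgeR with all 4 libraries, the filter on low counts and no replicate block, in DESeq2 or in limma. With these settings edgeR called 0.502% of 14142 genes tested (0.403% higher and 0.099% lower). In edgeR, 5 of the 9 tested members had an unadjusted p under 0.05, which held for 16.9% of all genes tested. Of these, ACVR2A, BMPR2 and SKIL had higher values after Z325 and ID2 and ID3 had lower ones. The values below are therefore given without a call.

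The coreceptor TGFBR3 had 0 and 0 counts in the control and 0 and 1 counts in the treated NCI-H716 libraries. In the libraries at 0, such a count allows up to 0.224 to 0.294 CPM. It was not tested. ACVR1 was at 7.72 and 13.3 CPM in the controls and 13.7 and 10.5 CPM after Z325, and the groups overlapped. Its log2 fold change was 0.21 (SE 0.31, edgeR adjusted p = 0.773), and -0.13 without control replicate 1. Neither gene gives a direction in this line.

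TGFBR2 was at 5.07 and 4.85 CPM in the control and 9.16 and 4.98 CPM in the Z325-treated NCI-H716 libraries. The groups overlapped because only the first treated library was high. The log2 fold change was 0.50 (SE 0.37, 95% confidence interval -0.32 to 1.31, edgeR adjusted p = 0.521), and without that library it was 0.01.

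Both other type II receptors had treated libraries above both controls in NCI-H716. ACVR2A was at 8.63 and 13.0 CPM against 16.2 and 16.8 CPM, a log2 fold change of 0.62 (SE 0.26, unadjusted p = 0.0405, edgeR adjusted p = 0.277). BMPR2 was at 22.7 and 30.6 CPM against 36.8 and 38.0 CPM, a log2 fold change of 0.49 (SE 0.21, unadjusted p = 0.0404, edgeR adjusted p = 0.277). ORC4, which overlaps ACVR2A, had 505 to 847 counts in these libraries.

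The BMP SMADs had smaller differences. SMAD1 was at 16.6 and 17.6 CPM in the control and 17.9 and 24.0 CPM in the treated NCI-H716 libraries, a log2 fold change of 0.30 (SE 0.23, edgeR adjusted p = 0.536). SMAD5 was at 68.1 and 79.8 CPM against 82.5 and 81.1 CPM, a log2 fold change of 0.15 (SE 0.17, edgeR adjusted p = 0.710). On the FPKM scale SMAD5 had the opposite order, with 19.6 and 20.2 FPKM in the controls and 13.6 and 16.7 FPKM after Z325, and limma on log2(FPKM + 1) gave a log2 difference of -0.38. The effective length by which the deposited FPKM are divided was 3418 and 3996 bases for SMAD5 in the controls and 6005 and 4907 bases in the treated libraries, so that the scales differ by the isoforms RSEM assigned. SMAD1, at 0.30 in CPM, was likewise at -0.01 in limma on log2(FPKM + 1). No direction is given for either SMAD.

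SKIL was at 67.8 and 71.2 CPM in the control and 99.5 and 101 CPM in the Z325-treated NCI-H716 libraries. The libraries within each group were close and the groups apart, with a log2 fold change of 0.53 (SE 0.16, 95% confidence interval 0.17 to 0.89, unadjusted p = 0.00870, edgeR adjusted p = 0.174). It had the smallest unadjusted p of the members in this line, and the adjusted p did not pass.

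The ID genes were the most abundant members in NCI-H716, and both had lower values after Z325. ID2 was at 554 and 426 CPM in the control and 391 and 342 CPM in the treated libraries, a log2 fold change of -0.42 (SE 0.18, unadjusted p = 0.0399, edgeR adjusted p = 0.276). ID3 had 17544 and 7914 counts in the control and 9114 and 5254 counts in the treated libraries, which were 1328 and 767 CPM against 696 and 264 CPM. The groups did not overlap, but the lower control and the higher treated library were close. Its log2 fold change was -1.13 (SE 0.38, 95% confidence interval -1.98 to -0.28, unadjusted p = 0.0143, edgeR adjusted p = 0.199). That value was -1.98 without Z325 replicate 1, -0.57 without Z325 replicate 2 and -0.67 without control replicate 1, so that its size depended on single libraries. Without the filter on low counts it was -1.11 (edgeR adjusted p = 7.34e-08), where 2.43% of all genes were called. With the replicate block it was -1.23 (edgeR adjusted p = 2.69e-18), where 16.9% of all genes were called. The call of ID3 thus depended on the settings of the fit too, and DESeq2 and limma did not make it. The range of edgeR, DESeq2 and limma adjusted p over all alternatives ran from 2.69e-18 to 0.831 for ID3. Effective length also moved with ID3, at 691 and 654 bases in the controls and 618 and 420 bases in the treated libraries, and its part was not tested.

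Over the 9 tested members in NCI-H716, 5 had both treated libraries above both controls and 2 had both below, where 24.3% of all genes tested were above and 25.1% below. A log2 fold change below 0 was found in 2 of the 9, against 50.6% of all genes. The members' median was 0.30, against -0.01 over all genes tested.

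For the 8 members tested in both lines, edgeR's interaction term asked whether the log2 fold change in NCI-H716 was unlike that in HCT116. None passed the adjusted threshold in edgeR or in DESeq2, where edgeR called 0.0654% of 7642 genes. In edgeR 3 members, TGFBR2, ID2 and BMPR2, had an unadjusted p under 0.05, which held for 14.3% of genes. The fall of TGFBR2 called in HCT116 is thus not shown to be particular to that line. Each line was quantified in a different way, so that line and quantification cannot be told apart in this term. The halved HCT116 counts were not put through it.

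TGFBR2 had the widest gap, with log2 fold changes of -1.34 in HCT116 and 0.50 in NCI-H716 and a difference of 1.82 (SE 0.48, 95% confidence interval 0.78 to 2.86, unadjusted p = 0.00250, edgeR adjusted p = 0.164). For ID2, at -1.27 and -0.42, the direction was the same in both lines and the difference was 0.84 (SE 0.25, 95% confidence interval 0.30 to 1.38, edgeR adjusted p = 0.193). BMPR2, at -0.33 and 0.49, differed by 0.81 (SE 0.32, edgeR adjusted p = 0.277). In the other 5 members the adjusted p was 0.357 or higher.

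**Figure D2:**
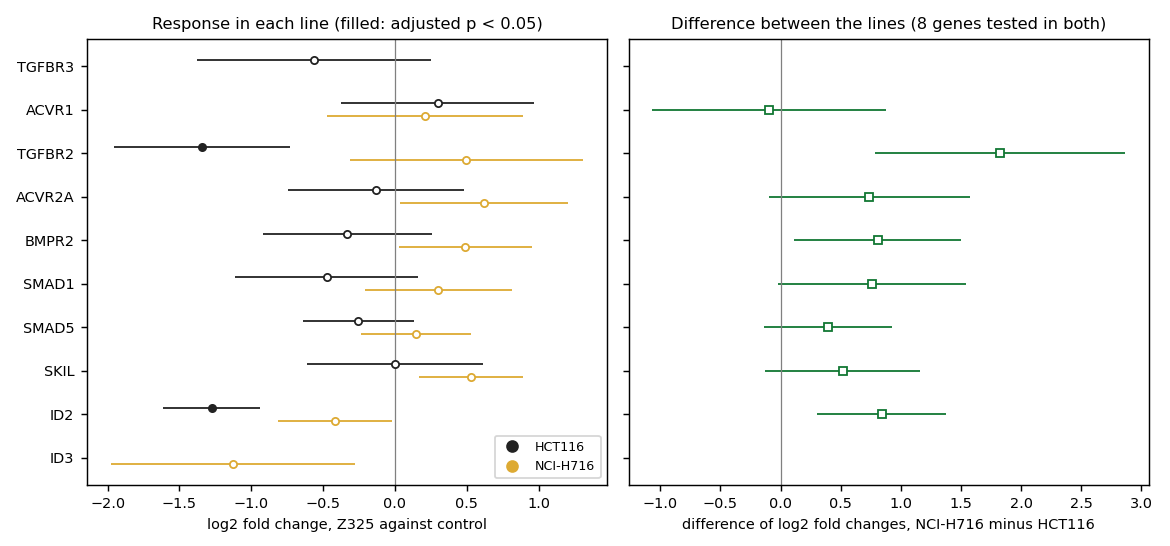
Left, log2 fold change of each member, Z325 against control, in HCT116 and NCI-H716, with 95% confidence intervals from edgeR (filled points, adjusted p under 0.05); right, the difference of the log2 fold changes, NCI-H716 minus HCT116, for the 8 genes tested in both lines. TGFBR2 and ID2 in HCT116 are the filled points, and the difference lies farthest from 0 for TGFBR2, at 1.82.

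Levels were set in order per length, in FPKM within each line. The HCT116 table gives counts, and its FPKM were computed from exon lengths over the listed genes, while those of NCI-H716 are the deposited ones, so that levels were not tested across the lines. In control HCT116 cells ID2 led at 131 ± 2.65 FPKM (SD, n = 2). SMAD5 followed at 17.4 ± 3.64 FPKM. SKIL at 4.40 ± 1.40 FPKM and TGFBR2 at 4.36 ± 0.0573 FPKM did not differ beyond their spread. Below them came ACVR2A (3.17 FPKM), SMAD1 (2.85 FPKM), BMPR2 (2.06 FPKM), ACVR1 (1.47 FPKM) and TGFBR3 (1.19 FPKM), each with a range apart from its neighbours, and ID3 was last at 0.0507 FPKM. After Z325, TGFBR2 stood at 1.66 ± 0.00683 FPKM, below ACVR2A and SMAD1 and within the range of ACVR1. ID2 still led, at 52.3 ± 4.42 FPKM.

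In control NCI-H716 cells the order began with ID3 at 1538 ± 500.0 FPKM and ID2 at 450 ± 78.4 FPKM. SMAD5 stood at 19.9 ± 0.396 FPKM. SKIL (10.9 ± 0.714 FPKM) and SMAD1 (9.62 ± 1.85 FPKM) overlapped, as did ACVR1 (5.96 ± 2.23 FPKM) and ACVR2A (4.01 ± 0.877 FPKM). BMPR2 was at 2.53 ± 0.636 FPKM and TGFBR2 at 1.39 ± 0.255 FPKM, and TGFBR3 was listed at 0. The ID targets thus stood above every receptor and SMAD of the set in NCI-H716, and TGFBR2 was the lowest of the receptors with reads.

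**Figure D3:**
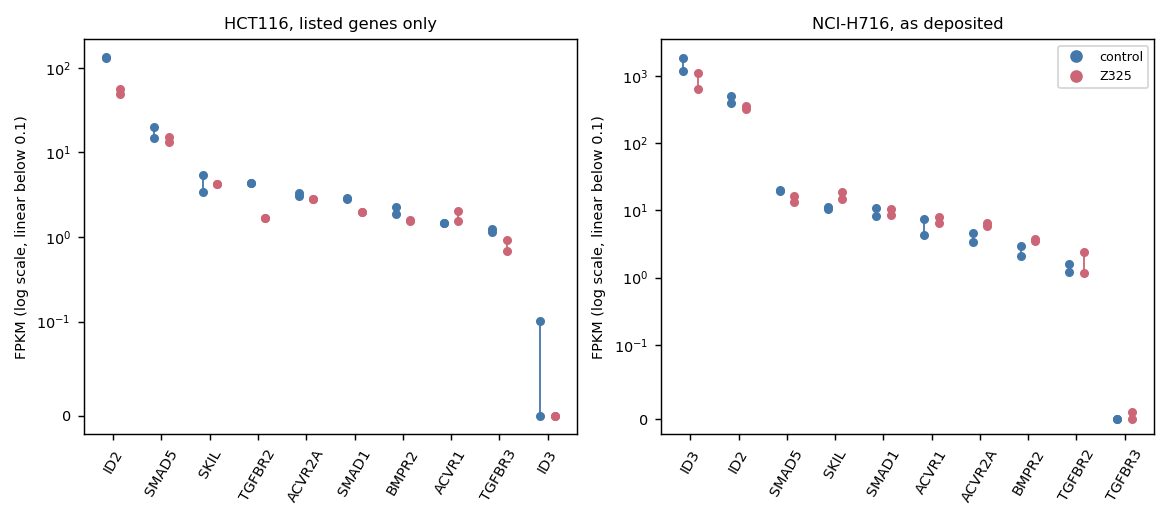
Level of each member in FPKM in each library (points, joined within a group of 2; y axis on a log scale, linear below 0.1), ordered by the control mean of the line. ID2 led in HCT116, at 131 FPKM in the controls, and ID3 in NCI-H716, at 1538 FPKM, while ID3 in HCT116 and TGFBR3 in NCI-H716 lie at the bottom.

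The rest of the pathway was read from 79 genes in 5 roles. In HCT116, 38 of them were listed and 22 tested, of which 13 had higher and 9 lower values after Z325, with a median log2 fold change of 0.01. None of the 22 was called in edgeR with all 4 libraries, in DESeq2 or in limma, and 2 target genes, CCN1 and HEY1, had an unadjusted p under 0.05 in edgeR, both with higher values, where 11.2% of all genes tested had one in that direction.

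Among the HCT116 targets, CCN1, a matricellular protein gene, was at 5.86 and 6.83 CPM against 11.1 and 17.2 CPM (log2 fold change 1.13, edgeR adjusted p = 0.111). HEY1, a Notch and BMP target, had only 2 and 11 counts against 16 and 18 counts (edgeR adjusted p = 0.205). MSX1, a homeobox gene induced by BMP, was at 58.6 and 41.3 CPM against 37.3 and 32.9 CPM (log2 fold change -0.50, edgeR adjusted p = 0.256), so that the targets did not share a direction. Of 2 receptors tested, ACVR2B, a type II activin receptor like ACVR2A, was at 13.8 and 13.0 CPM against 21.5 and 17.5 CPM (log2 fold change 0.55, edgeR adjusted p = 0.295), and the coreceptor RGMB had a log2 fold change of -0.30. Both values lay within the test's error. The regulators ZFYVE9, WWP1 and SKI had log2 fold changes of -0.30, 0.15 and -0.27, and the ligands BMP8A and BMP8B of -0.03 and 0.02. None of these 5 genes passed the test. The other SMAD genes of the list were not among the genes listed for HCT116.

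In NCI-H716 all 79 genes were listed and 55 tested, of which 34 had higher and 21 lower values after Z325, with a median log2 fold change of 0.10. None of the 55 was called in edgeR with all 4 libraries, the filter on low counts and no replicate block, in DESeq2 or in limma. An unadjusted p under 0.05 in edgeR was found for 5 genes with higher and 1 with lower values, where 7.59% and 9.27% of all genes tested had one. SMAD3, which carries the TGF-beta signal, was at 7.12 and 6.01 CPM in the control and 14.4 and 12.2 CPM in the treated libraries, a log2 fold change of 1.01 (SE 0.27, unadjusted p = 0.00334, edgeR adjusted p = 0.129). SMAD4, the partner of all receptor-activated SMADs, was at 24.4 and 29.2 CPM against 39.3 and 34.98 CPM (log2 fold change 0.47, edgeR adjusted p = 0.272). SMAD9, the third BMP SMAD, was at 51.6 and 61.97 CPM against 62.4 and 98.5 CPM (log2 fold change 0.51, edgeR adjusted p = 0.297). Its lower treated library was almost at its higher control, and its groups overlapped in FPKM. Of the 6 SMAD genes outside the set, 4 had both treated libraries above both controls and none had both below, where 24.3% and 25.1% of all genes tested did.

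The NCI-H716 regulators with the smallest p were the ubiquitin ligase gene WWP1 (log2 fold change 0.68, edgeR adjusted p = 0.216), FKBP1A, which encodes a protein that holds type I receptors inactive (-0.66, adjusted p = 0.257), and the corepressor gene TGIF1 (0.61, adjusted p = 0.283). Among targets, the cell cycle inhibitor gene CDKN2B was at 2.57 and 2.04 CPM against 3.97 and 7.64 CPM (log2 fold change 1.33, edgeR adjusted p = 0.187). JUNB and COL1A2 had log2 fold changes of -0.95 and -1.59 (edgeR adjusted p = 0.329 and 0.349). The groups of JUNB and of FKBP1A overlapped, and COL1A2 had only 11 and 26 counts in the control and 3 and 16 counts in the treated libraries. The receptors ACVR1B, BMPR1B and BMPR1A were at -0.32, 0.18 and 0.10, and the ligands BMP8A, TGFB3 and BMP4 at -0.66, 0.62 and -0.11. None of these genes passed the test, and the values within ligands and receptors went both ways.

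**Figure D4:**
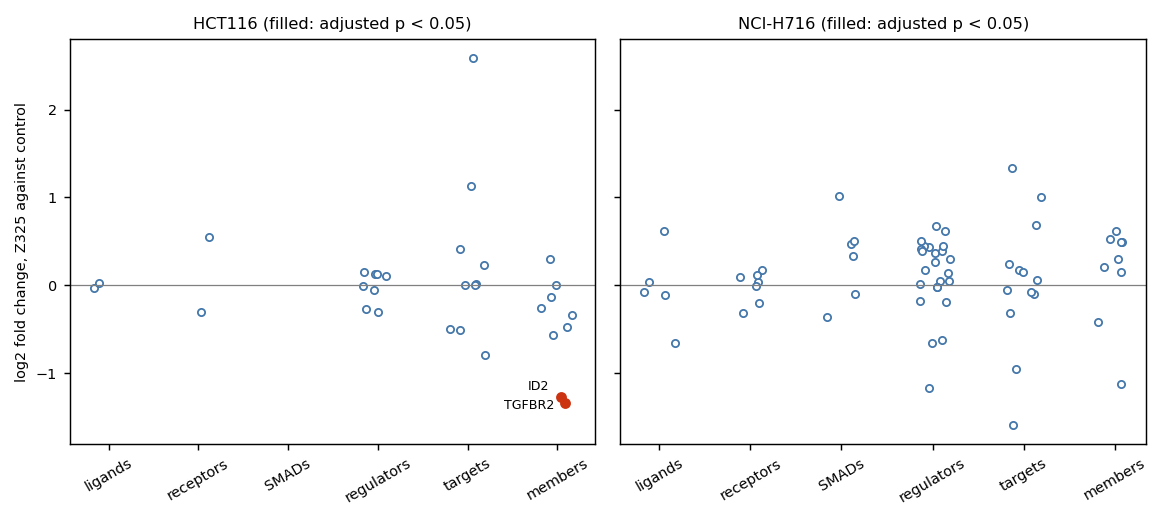
Log2 fold change, Z325 against control, of each tested gene of the pathway list by role and of the members, in HCT116 (left) and NCI-H716 (right); points are genes, and filled points passed an adjusted p of 0.05 in edgeR. ID2 (-1.27) and TGFBR2 (-1.34) in HCT116 are the filled points.

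ID2 was the member with the smallest adjusted p, and the genes whose pattern was most like it were sought among 2984 genes by the correlation of log2 CPM, centred within each line, over the 8 libraries. The closest were SRSF3, a splicing factor gene (Pearson r = 0.984), RPL7L1, which encodes a relative of ribosomal protein L7 (r = 0.984), and CDCA8, which encodes a subunit of the chromosomal passenger complex of mitosis (r = 0.982). Their log2 fold changes in HCT116 were -0.72, -0.71 and -1.84. The 8 points share 2 lines and 2 treatments, and the correlations are descriptions.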

How the data were processed

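RNA-seq libraries were made by full-length cDNA amplification and transposase-based preparation and sequenced as read pairs. The HCT116 table holds read counts per gene deposited by the authors (per the labels, hg38, Bowtie2 2.5.0 and featureCounts), and 4 broken lines were left out. The NCI-H716 tables hold expected counts, effective lengths and FPKM that the authors deposited from RSEM, and expected counts were rounded. Symbols were found for 62666 of 63241 NCI-H716 identifiers. The members and lists were chosen with earlier results of these data known, and 1 gene of the pathway list is not reported here.

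Counts were scaled by TMM, filtered by filterByExpr and tested in edgeR 4.0.16 (R 4.3.3; quasi-likelihood, two-sided), with adjusted p over all genes of a line, and the interaction of treatment and line over genes listed in both. Scripts were tested on simulated data. Named were all members, list genes with an adjusted p under 0.05, the 3 smallest p values in each role and line, and the 3 genes most like ID2 among those with at least 10 CPM on average in both lines. Alternatives were DESeq2 1.42.0, limma 3.58.1 on log2(FPKM + 1) and log2(FPKM + 0.1), library size alone, other filters, thinned counts, the replicate block and leaving out each library. Halving the HCT116 counts was chosen after seeing the data. Python 3.11.15, pandas 2.3.3 and matplotlib 3.10.9 were used for tables and figures.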

Additional observations from a re-analysis of the deposited data

Results flagged for a closer look

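In 4 members every Z325-treated HCT116 library was below and every Z325-treated NCI-H716 library above the controls of its line. Of 5014 genes tested in both lines, 290 (5.78%) had this pattern, and in single lines 29% of genes were below in HCT116 and 24.3% above in NCI-H716. The difference of the log2 fold changes, NCI-H716 minus HCT116, was 0.74 for ACVR2A, 0.81 for BMPR2, 0.76 for SMAD1 and 0.39 for SMAD5. In edgeR's interaction test the adjusted p was 0.4004, 0.277, 0.357 and 0.481 in the same order, so that no difference passed. SMAD1 and SMAD5 had the same sign in both lines in limma on log2(FPKM + 1), where their NCI-H716 values were -0.01 and -0.38, and ACVR2A was at 0.18 in HCT116 when libraries were thinned to the shallowest.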

How the results depend on the processing

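Over 329 alternative values of single members, 312 kept their direction and 17 reversed, in 6 of 26 results. In HCT116, 2 members were called, and 1 (ID2) in limma on log2(FPKM + 1) or log2(FPKM + 0.1) and 0 to 2 when a library was left out (0 without control replicate 2, 1 without control replicate 1), while halved counts gave 2. Over all genes, leaving out those controls left 23 and 44 calls of 375. In NCI-H716, 0 members were called, 1 (ID3) without the filter on low counts, 5 with the replicate block, and 0 to 1 when a library was left out (ID3 without Z325 replicate 1). Calls in the pathway list went from 0 to between 0 and 2 when a library was left out in HCT116 (2 when Z325 replicate 1 or 2 was left out, where 14.2% and 15.2% of all genes were called), and from 0 to 2 without the filter (2.43% of all genes), 10 with the replicate block (16.9%) and 0 to 5 when a library was left out in NCI-H716 (5 without Z325 replicate 1, where 9.26% of all genes were called). The count of members that differed between the lines was 0 throughout. Where 1 library was left in a group, it was assumed to vary like the other group. The shares of all genes given beside the pathway list hold for the member calls of the same setting too. In HCT116, limma on log2(FPKM + 1) and log2(FPKM + 0.1) called 0.724% and 0.57% of all genes.

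Directions reversed for ACVR2A in HCT116 when thinned (0.18), and for SKIL in HCT116 with library size alone (-0.049), no filter (-0.051), at least 10 counts in every library (-0.018), limma with pseudocount 1 or 0.1 (-0.016 and -0.013) and when a library was left out (-0.27 to 0.32, with -0.08 without Z325 replicate 1). In NCI-H716 they reversed for ACVR1 without control replicate 1 (-0.13, in a range up to 0.66), for SMAD1 in limma (-0.0054 and -0.0055) and for SMAD5 in limma (-0.38 and -0.40). The difference between the lines for ACVR1 was 0.018 without the filter and -0.39 to 0.34 when a library was left out. DESeq2, run without the filter, had an all-gene median log2 fold change of 0.12 in NCI-H716. That median was -0.01 in edgeR with the filter and 0.13 in edgeR without it. The members' own values moved little, with SKIL at 0.54 in DESeq2 and 0.53 in filtered edgeR, and ID2 at -0.41 and -0.42.

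Libraries of the same replicate number had correlated deviations of -0.03 in HCT116 and 0.20 in NCI-H716, with 2 pairs each. The labels name no batch for them, and whether same-numbered libraries share more than a number was not tested. With the replicate block, all-gene calls in NCI-H716 went from 71 to 2397 and the called members were ACVR2A (0.63), BMPR2 (0.50), SKIL (0.53), ID2 (-0.41) and ID3 (-1.23), while HCT116 kept 2 member calls. The second Z325 library of HCT116, with 3434620 counts, limits the precision of low members, as TGFBR2 had 39 counts there.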
